A study of Mus musculus with 6 samples.

Results

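Inside the bodies of protein-coding genes, away from their ends, 2716 genomic regions were recovered with both the even and the odd probes against the long noncoding RNA Tug1 in mouse podocytes. Peaks of the 4 pulldown libraries that overlapped by at least 1 bp were merged into 113114 regions, 106100 of them on chromosomes 1 to 19. A region was selected when it held a peak of at least 1 even and at least 1 odd library but not of all 4, and when its centre lay within a protein-coding gene and more than 2 kb from either end of every such gene. The regions were thus chosen by the presence of peaks, and they made up 2.56% of the merged regions on these chromosomes. Of the 6715 regions with the same library patterns anywhere on chromosomes 1 to 19, 3598 had their centre outside every protein-coding gene, and 401 were in a gene but within 2 kb of a gene end.

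The cells were podocytes, the glomerular epithelial cells of the kidney filter, immortalised with a temperature-sensitive SV40 T antigen, propagated at 33 degrees, moved to 37 degrees for 10 days to differentiate, and used at passages 10 to 12. In ChIRP-seq, short for chromatin isolation by RNA purification, biotinylated oligonucleotides complementary to an RNA recover that RNA with the DNA crosslinked near it, here by glutaraldehyde. The 48 probes along Tug1 were split into even and odd sets with no probe in common, each set was used in 2 pulldowns (called even 1, even 2, odd 1 and odd 2 here), and 1% of the chromatin served as input, from which 2 libraries were made. All groups shared this cell line and treatment, and no change of Tug1 was part of the design. Nothing in the labels says whether the replicates came from separate cultures, so spread between them may be technical. Peak lists hold no expression values, so the podocyte identity was not checked against markers, and depth is unknown from them.

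Tug1 is a nuclear and cytoplasmic RNA that has been studied in podocytes for its link to mitochondrial function through PGC-1alpha, the coactivator encoded by Ppargc1a. Gene bodies consist mostly of intron sequence, and introns can hold enhancers, internal promoters, small RNA genes and repeats. Signal from even probes alone or odd probes alone can arise from DNA that pairs with a probe, and for this reason the assay asks for recovery by both sets.

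Sequence could be read at 30 of the regions that overlapped a RefSeq promoter window (GRCm38.p6, 250 bases before to 50 after an annotated transcript start) and at a microRNA gene. Of the 32 windows reached, 20 belonged to 19 of the host genes themselves, and the other 12 to long noncoding RNA genes. The following 250 bases upstream of a start are shown because the region covered the whole window of the host gene, for which capitals mark covered bases, as they do in the partly covered window of Wfdc3.
Arhgef2: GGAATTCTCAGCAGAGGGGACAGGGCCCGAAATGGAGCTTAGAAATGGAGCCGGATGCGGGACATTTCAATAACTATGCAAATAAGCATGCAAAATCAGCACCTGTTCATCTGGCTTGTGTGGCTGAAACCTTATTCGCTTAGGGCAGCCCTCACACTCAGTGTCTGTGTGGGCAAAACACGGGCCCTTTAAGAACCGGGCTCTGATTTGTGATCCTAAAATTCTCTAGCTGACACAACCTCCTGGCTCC
Fam107b: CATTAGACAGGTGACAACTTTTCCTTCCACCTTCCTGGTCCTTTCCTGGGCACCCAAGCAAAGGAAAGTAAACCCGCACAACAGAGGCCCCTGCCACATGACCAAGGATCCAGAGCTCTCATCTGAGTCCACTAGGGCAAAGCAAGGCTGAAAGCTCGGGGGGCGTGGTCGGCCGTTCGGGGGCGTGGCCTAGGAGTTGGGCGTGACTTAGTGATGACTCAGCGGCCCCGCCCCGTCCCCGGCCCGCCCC
Pld1: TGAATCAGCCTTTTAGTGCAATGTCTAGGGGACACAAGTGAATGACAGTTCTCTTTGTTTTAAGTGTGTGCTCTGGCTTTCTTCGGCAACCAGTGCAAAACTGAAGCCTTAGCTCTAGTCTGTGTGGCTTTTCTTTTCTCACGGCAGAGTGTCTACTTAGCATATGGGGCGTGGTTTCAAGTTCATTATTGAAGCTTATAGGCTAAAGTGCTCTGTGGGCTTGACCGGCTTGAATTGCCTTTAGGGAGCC
Zfp59: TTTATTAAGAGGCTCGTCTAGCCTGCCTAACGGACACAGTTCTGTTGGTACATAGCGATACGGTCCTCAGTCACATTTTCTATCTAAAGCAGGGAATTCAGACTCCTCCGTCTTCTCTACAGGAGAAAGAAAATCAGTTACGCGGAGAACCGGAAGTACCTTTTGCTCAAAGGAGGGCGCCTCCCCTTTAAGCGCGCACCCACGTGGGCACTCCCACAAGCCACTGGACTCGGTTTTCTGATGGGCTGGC
Cacnb3: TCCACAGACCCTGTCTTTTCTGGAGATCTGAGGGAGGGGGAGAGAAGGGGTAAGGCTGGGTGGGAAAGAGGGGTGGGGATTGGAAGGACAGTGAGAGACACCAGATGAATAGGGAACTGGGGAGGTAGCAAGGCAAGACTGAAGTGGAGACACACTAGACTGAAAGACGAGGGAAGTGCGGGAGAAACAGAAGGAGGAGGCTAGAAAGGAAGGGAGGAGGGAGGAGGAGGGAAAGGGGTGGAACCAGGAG
Hoxc4: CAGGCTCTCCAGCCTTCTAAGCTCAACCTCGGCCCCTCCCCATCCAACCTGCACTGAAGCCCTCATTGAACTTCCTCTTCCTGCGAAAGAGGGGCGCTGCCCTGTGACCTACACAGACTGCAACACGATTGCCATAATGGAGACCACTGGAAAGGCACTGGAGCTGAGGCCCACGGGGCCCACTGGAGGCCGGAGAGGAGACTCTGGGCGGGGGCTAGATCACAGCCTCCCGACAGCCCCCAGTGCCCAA
Wfdc3: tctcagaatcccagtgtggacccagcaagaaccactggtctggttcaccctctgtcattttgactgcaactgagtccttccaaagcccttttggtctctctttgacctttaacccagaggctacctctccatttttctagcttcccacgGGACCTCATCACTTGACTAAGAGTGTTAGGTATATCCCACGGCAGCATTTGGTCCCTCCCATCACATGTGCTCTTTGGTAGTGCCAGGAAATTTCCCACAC

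Arhgef2, which encodes the microtubule-associated guanine nucleotide exchange factor GEF-H1, held the region chr3:88615487-88616574 over an internal start at position 88616143 on the plus strand. Its authors' peak score was 3100 in even 1, 3100 in odd 1 and 192 in odd 2, and even 2 had no peak. The region of Fam107b at chr2:3712937-3713561 had the same 3 libraries, with an odd 2 score of 172. The window of Fam107b was the most CpG-rich of the 6 wholly covered ones, with 22 CpG, and held a GC box (GGGCGG) and an AP-1 motif (TGANTCA). Pld1, the gene of phospholipase D1, held chr3:27983812-27984415 with an odd 2 score of 235. Its window began with TGAATCA, a match to the searched letters TGANTCA. At Zfp59, a zinc finger gene, chr7:27838306-27838791 scored 3100 in even 1, 535 in even 2 and 3100 in odd 1, and the window held the E-box CACGTG. The region of Cacnb3, a calcium channel beta subunit gene, at chr15:98631871-98632468 came from even 2 and odd 2, with scores of 165 and 116. Hoxc4, a homeobox gene, had chr15:103034018-103034562 from even 1 and odd 1, with scores of 3071 and 3100. The windows of Cacnb3 and Hoxc4 each held a GC box and a CCAAT box. At Wfdc3, whose region chr2:164742906-164743368 covered 151 of the 300 bases, the odd 2 score was 715 beside 3100 in even 1 and odd 1.

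Motif letters were searched on both strands, and a match is a description of the letters only. Over the 32 windows, GGGCGG was present in 10, TATAAA in 4, CCAAT in 14, CACGTG in 3 and TGANTCA in 3. Among all 31396 windows searched the same letters were present in 36% (GGGCGG), 13.6% (TATAAA), 37.3% (CCAAT), 7.14% (CACGTG) and 7.84% (TGANTCA). None of these motifs contains another, although neighbouring matches can share end letters. The median GC content was 54.3% in the 32 windows and 53% in all, and the median number of CpG was 7 in both.

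A tandem repeat underlay the region with the highest odd 2 score among those at promoter windows. It lies in Ccdc171, at chr4:83841617-83843104, over the start of the long noncoding RNA gene Gm42309 on the minus strand, and scored 3100 in even 1, odd 1 and odd 2. Its upstream sequence is shown because it consists of a unit of 16 bases, GAAGCAGCATCACTGA, repeated with few changes; 95.4% of the bases in the window equalled the base 1 unit further on.
Gm42309: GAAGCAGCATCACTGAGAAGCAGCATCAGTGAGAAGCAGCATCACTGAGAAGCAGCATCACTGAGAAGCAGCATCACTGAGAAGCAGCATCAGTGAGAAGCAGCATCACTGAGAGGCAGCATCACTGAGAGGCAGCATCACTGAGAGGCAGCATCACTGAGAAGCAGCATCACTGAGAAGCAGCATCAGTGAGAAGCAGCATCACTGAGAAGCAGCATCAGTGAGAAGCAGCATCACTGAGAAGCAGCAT

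Other kinds of gene also lay at region centres. Long noncoding RNA genes held 138 centres and pseudogenes 15. These are 5.08% and 0.552% of the regions, against 4.62% and 0.503% of gene-body regions with a peak in only 1 library. A microRNA gene was overlapped away from the region's centre: the hairpin of miR-190a lies in Tln2, the gene of the adhesion protein talin 2, within the region chr9:67236591-67237039. That region scored 3100 in even 1 and 248 in odd 2. Both mature arms are shown with the seed, bases 2 to 8, in capitals.
mmu-miR-190a-5p: uGAUAUGUuugauauauuaggu
mmu-miR-190a-3p: aCUAUAUAucaagcauauuccu

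Gene bodies held about the same share of even-odd regions as of regions seen in 1 library. The share was 40.4% of the 6715 even-odd regions, 40.5% of 94105 regions of 1 library, 42.1% of 4617 regions shared by both libraries of 1 probe set, and 35.3% of 663 regions of all 4 libraries. The share also followed the library pattern. It ran from 28.6% of the regions with peaks in even 2, odd 1 and odd 2 to 44% of those in even 1 and odd 1. Among regions of 1 library it was 42.1% for even 1 and 42% for odd 1, and 38.5% for even 2 and 39.1% for odd 2. Those values divide by replicate number, which is also the number of the input each list was called against, so replicate and input cannot be told apart.

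Most regions rested on the minimum of 2 libraries. Peaks of 2 libraries made 1878 of them and peaks of 3 libraries 838 (30.9%). The pair even 1 and odd 2 gave 908 regions, even 1 and odd 1 gave 716, and the triple of even 1, odd 1 and odd 2 gave 467. The patterns without even 1 were the rarest among pairs, with 144 regions for even 2 and odd 2 and 110 for even 2 and odd 1.

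**Figure D1:**
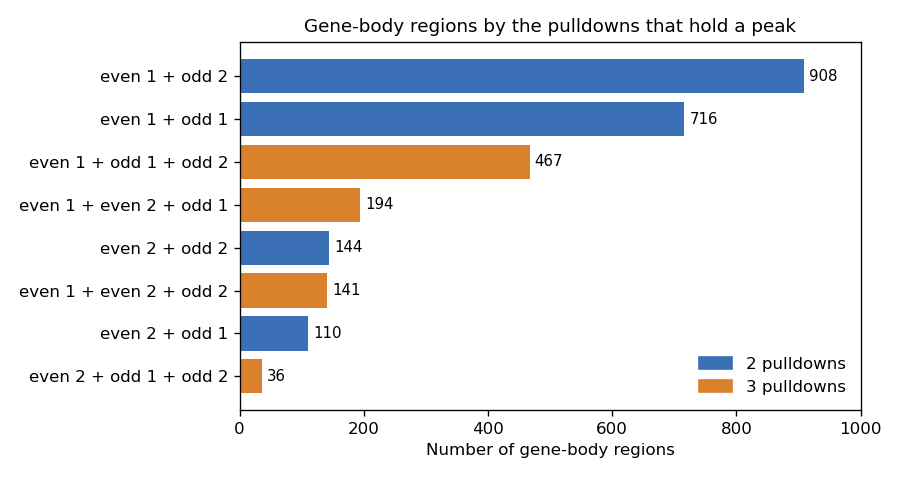
Number of gene-body regions (horizontal axis) for each set of pulldowns with a peak in the region (rows); blue bars are sets of 2 pulldowns and orange bars sets of 3. The 3 longest bars, 908, 716 and 467 regions, all include even 1.

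Even 1 took part in 2426 regions (89.3%), odd 2 in 1696 (62.4%), odd 1 in 1523 (56.1%) and even 2 in 625 (23%). Even 1 also had the longest list, with 40725 peaks against 34968, 28047 and 26529 in odd 2, odd 1 and even 2. As a share of each list, the peaks in these regions were 5.98% in even 1, 2.37% in even 2, 5.44% in odd 1 and 4.87% in odd 2. The even mean was 4.18% ± 2.55 (SD, n = 2) and the odd mean 5.16% ± 0.404 (SD, n = 2), a difference smaller than the spread of the even libraries. An exact permutation test of this difference was run over the 4 libraries. Its smallest possible p is 0.333, so it cannot reach 0.05 and no conclusion is drawn. The rule also used the peaks of both probe sets. Without even 1, 622 regions in 545 genes would be selected and 34.3% of the even-odd regions would lie in gene bodies. Without odd 1 the number was 1692, without odd 2 it was 1518 in 1294 genes, and without even 2 the share in gene bodies was 41.7%.

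The even and odd peaks of a region usually lay on the same bases. The median region was 471 bp wide (quartiles 416 and 574, range 218 to 3481), and a median of 272 bp was covered by an even and an odd peak alike, or 61.4% of the region. At least 50% was covered by both in 1883 regions (69.3%), while 52 regions had 50 bp or less in common. Regions of 1 library in gene bodies had a median width of 332 bp and regions of all 4 of 547 bp. Width follows in part from the rule, since merging joins the spans of several peaks.

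The score that the authors' peak caller gave each peak can be read only within a list, and in even 1 and odd 1 most peaks of these regions carry the value 3100 (88.7% and 99.8% at or above it). In even 2 the median score was 300 in these regions (quartiles 198 and 453), 255 in gene-body regions of 1 library and 430 in those of all 4. In odd 2 the corresponding medians were 306 (quartiles 203 and 473), 211 and 443. In both lists the even-odd regions therefore had their median between the other classes. These values describe the classes and were not tested, because peak presence defined them.

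The regions lay in 2088 of 20665 protein-coding genes on chromosomes 1 to 19 (10.1%). Of these host genes 1625 held 1 region, 338 held 2 and 125 held 3 or more, 16 of them 5 or more, up to 9. A single gene spanned each of 2686 regions, 29 lay in a pair of overlapping genes, and 1 lay in 17 gene models of the protocadherin alpha cluster, which share their last exons. The median host gene was 91.6 kb long (quartiles 42.4 and 216), against 17.5 kb for all protein-coding genes and 24.5 kb for the 16784 genes that have any sequence more than 2 kb from a gene end. Gene bodies so defined span 906 Mb and held 3.00 of these regions per Mb, compared with 47.5 regions of any pattern.

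Longer genes were more often hosts, while the density per Mb was lower in them. Of genes up to 20 kb, 1.77% held a region, of genes of 100 to 250 kb 33.5%, and of genes over 1000 kb 83.6% (46 of 55). Density went the other way, from 4.13 regions per Mb in the shortest class to 1.63 in the longest. Regions of 1 library were also sparser in long genes, from 51.2 to 31.5 per Mb, and the even-odd regions per 100 of them went from 8.05 to 5.19.

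**Figure D2:**
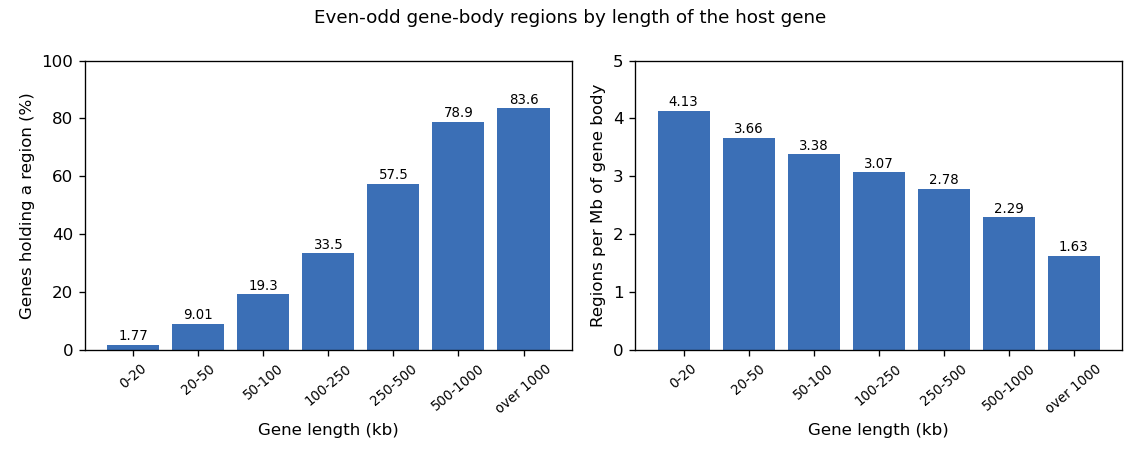
Left, percentage of protein-coding genes with at least 1 region; right, regions per Mb of gene body, both by gene length class in kb. The percentage rises from 1.77 to 83.6 across the classes and the density falls from 4.13 to 1.63.

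The regions were spread along the gene, without a marked preference for either end. For the 2082 regions whose host gene has a strand in the promoter table, the median position was 52.2% of gene length, and successive 20% stretches of the gene held 17.5%, 20.5%, 20.4%, 22.2% and 19.4% of the regions. For 1-library regions the same stretches held 17.9%, 21.3%, 21.4%, 21.4% and 17.9%. Sequence within 2 kb of an end was left out by the rule.

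**Figure D3:**
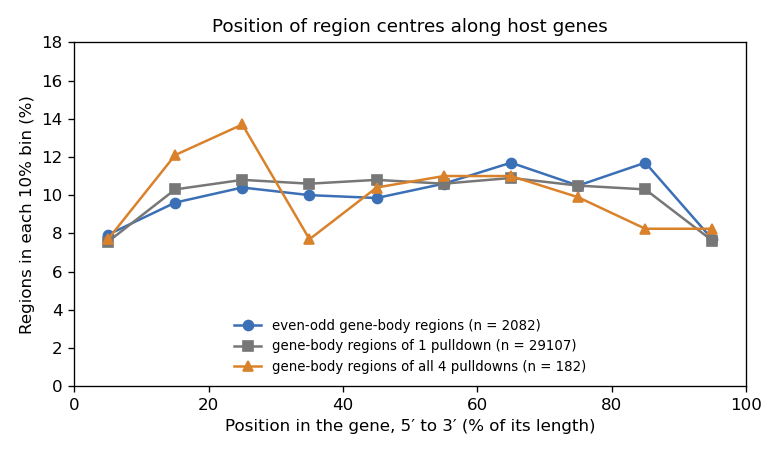
Percentage of region centres (vertical axis) in each 10% bin of gene length from the 5′ to the 3′ end, for even-odd gene-body regions (blue), regions of 1 pulldown (grey) and regions of all 4 (orange). Even-odd regions stay between 7.68% and 11.7% per bin, and 1-pulldown regions between 7.56% and 10.9%.

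A known transcript start was nearby somewhat more often for even-odd regions than for the other classes, although rarely in any. The difference was smallest from regions shared by both libraries of 1 probe set. On chromosomes with promoter windows, 30 of 2624 even-odd regions overlapped one (1.14%), of 36936 regions of 1 library 184 did (0.498%), of 1885 regions of both libraries of 1 probe set 13 (0.69%), and of 226 regions of all 4 libraries 1 (0.442%). Over every pattern the share was 0.547%. Centres lay within 500 bp of a start in 1.22% of the even-odd regions and 0.772% of 1-library regions. The value was 0.902% for both libraries of 1 probe set and 0.442% for all 4 libraries, the latter from 1 region. Even-odd regions of 2 libraries, with a median width of 458 bp, were at 1.1%. Regions of both libraries of 1 probe set, at 461 bp, were close to them in width. Even-odd regions are wider than 1-library regions, and the part of width in the difference, like the difference itself, was not tested.

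Chromosomes 8, 15 and 19 held 542 of the regions (20%) on 12% of the gene-body sequence, at 4.88, 5.11 and 4.63 per Mb. All other chromosomes lay between 2.08 and 3.1 per Mb, and the median chromosome was at 2.84. Regions of 1 library showed the same 3 chromosomes above the rest, at 64, 62.1 and 62.8 per Mb. The even-odd regions per 100 regions of 1 library ranged only from 5.41 to 8.23 over chromosomes.

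The host genes with the most regions fell into long genes and short crowded ones. Zfhx3, a zinc finger homeobox transcription factor gene of 682 kb, held 8 regions, 4 of them with 3 libraries. Its region chr8:108754858-108755315 scored 3100 in even 1, 760 in even 2 and 3100 in odd 1, and chr8:108827466-108828079 scored 3100, 144 and, in odd 2, 719. Nrg1, whose product neuregulin 1 is a ligand of ErbB receptors, held 7 regions in 1084 kb. Among them chr8:32429224-32430267 scored 3100 in even 1, 688 in even 2 and 3100 in odd 1, and chr8:32049856-32050337 had an odd 2 score of 1078. Ctnna3, the alpha-T-catenin gene of 1574 kb, held 7 regions as well, and of these only chr10:64350681-64351308 had 3 libraries. Cdh13, the T-cadherin gene, held 6 regions in 1185 kb beside 70 regions of 1 library. Its regions chr8:118306377-118306874 and chr8:118368895-118369345 both had peaks in even 1, odd 1 and odd 2, with odd 2 scores of 484 and 486. Sorcs2, a sortilin-family receptor gene, held 6 regions in 381 kb, 3 of them within chr5:36174094-36197299 and each with even 1, odd 1 and odd 2 peaks. Adgrv1, an adhesion receptor gene of 538 kb, held 6, of which chr13:81282505-81283039 had 3 libraries.

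Ulk4, a gene of the unc-51-like kinase family, stood apart among long genes in the grouping of its regions. Of its 9 regions, 7 lay between positions 121220219 and 121239568 of chromosome 9, in a gene of 322 kb, and 6 of the 9 had 3 libraries. The gene also held 3 regions of all 4 libraries. Several of these regions were wide, such as chr9:121230347-121232176 at 1830 bp, and some had even 1 scores under the usual value, such as 2005 at chr9:121237727-121238677. How uniquely reads map in this stretch is not given by the peak lists, and its part in the grouping was not tested.

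**Figure D4:**
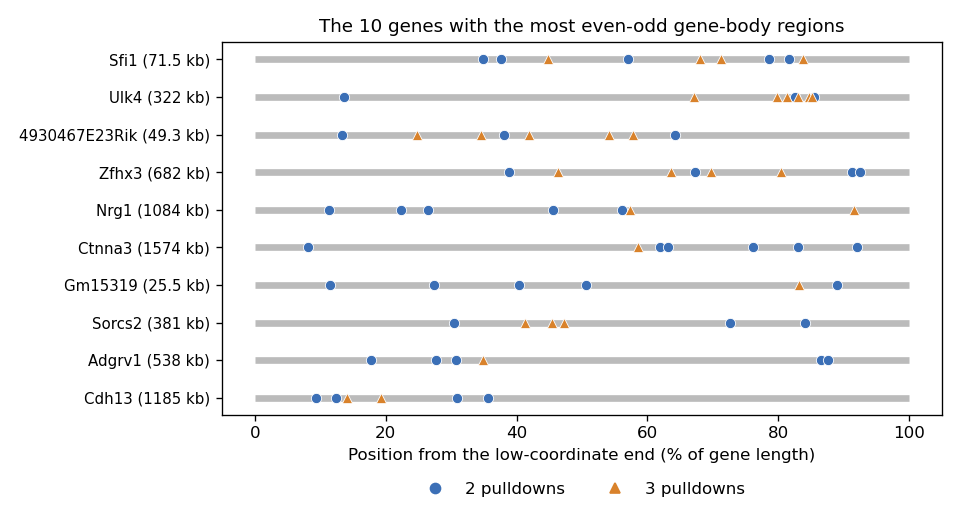
Position of each region (points) along the 10 genes with the most regions, as a percentage of gene length from the low-coordinate end, with gene length in kb in the row labels; blue circles are regions of 2 pulldowns and orange triangles regions of 3. In Ulk4, 7 of 9 points gather in 1 stretch, whereas in Nrg1 or Ctnna3 they spread along the gene.

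Among genes with at least 3 regions, the highest densities were found in genes under 100 kb that were crowded with regions. Sfi1, a centrin-binding protein gene of 71.5 kb, held 9 regions (126 per Mb), 4930467E23Rik 8 (162 per Mb), Gm15319 6 (235 per Mb), C130026I21Rik 4 (96.2 per Mb) and 9530057J20Rik 3 (93.9 per Mb). Regions of any pattern numbered 469 to 666 per Mb there, against 47.5 over all gene bodies. Densities of single genes are over the full gene length. The value of 47.5 is over sequence more than 2 kb from gene ends, so the measures differ somewhat. How uniquely reads map in these genes is not given by the peak lists, and its part in the densities was not tested, so these values are uncertain. Within Sfi1 the even 1 score was as low as 59.5 and 71.0, although most peaks of that list carry 3100, and its widest region, chr11:3162182-3165662, spans 3481 bp. Gm15319 depended on the second replicates: 5 of its 6 regions came from even 2 and odd 2 alone. Likewise no region of 4930467E23Rik or 9530057J20Rik had an odd 1 peak. Gm15319 and these genes lie close together on chromosome 8, between positions 19704311 and 20363202. An even 2 score in 4930467E23Rik was as low as 51.9, against a median of 265 over that list. C130026I21Rik overlaps Gm38510, and its 4 regions lie in both. Over all genes, 87 had at least 3 regions of any pattern at over 190 per Mb; they contained 56 of the even-odd regions, and without them 2660 regions in 2062 genes remained.

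Neighbouring regions within a gene were usually far apart. Among 673 pairs of neighbours the median gap was 52.4 kb (quartiles 15.9 and 137). Only 69 pairs lay within 5 kb, in 46 genes. One such pair was in Hif1a, the gene of the hypoxia-inducible factor, with a gap of 235 bp, where the long noncoding RNA gene Gm15283 also lies.

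The 10 regions of 3 libraries with the highest mean rank of score all had peaks in even 1, even 2 and odd 2; the shared score of 3100 in odd 1 holds patterns with that library at a middle rank. The first was in Cacna1a, the pore subunit gene of P/Q-type calcium channels, at chr8:84473814-84474420, with scores of 3100 in even 1, 1102 in even 2 and 3176 in odd 2. The latter was the highest score of the whole odd 2 list. Gpc6, a glypican gene, followed at chr14:117063840-117064323 with 924 in even 2 and 758 in odd 2. Slc43a2, an amino acid transporter gene, had chr11:75533214-75533717 at 738 and 987, and Patj, a tight junction scaffold gene, had chr4:98655033-98655520 at 961 and 677. Even 1 was at 3100 in each of these. A further 5 lay in Gm6614, Tmem168, Adamts14, Fam193a and Nr5a2, the last a nuclear receptor gene. Their even 2 scores ranged from 627 in Nr5a2 to 995 in Gm6614, and their odd 2 scores from 611 in Gm6614 to 1026 in Adamts14.

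Just inside the 2 kb limit were regions in Carmil3, Usp18 and Tomm70a, with centres 2001, 2004 and 2010 bp from the nearest gene end. Just outside were those in Trappc3l, Pfdn5 and Tubgcp2, at 1985, 1976 and 1976 bp. The odd 2 score was 122, 320 and 92.5 inside, and 115 in Pfdn5 and 702 in Tubgcp2 outside.

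Lists of genes (10) and gene families (18) were then counted, each against the 10.1% of all protein-coding genes that held a region and 3.01 regions per Mb summed over genes. In 23 of the 28 the percentage was above that of all genes, and in 15 of the 28 the density was. Of the 20665 genes behind the 10.1%, only 16784 have sequence more than 2 kb from a gene end. The others could not hold a region, so the share among genes able to hold one was above 10.1%. Gene length differs widely between the lists, so the density stands beside each percentage. A region in overlapping genes was counted in the density once for each gene. This raised the density of zinc finger genes, with 47 different regions, and of cadherins and protocadherins, with 28. These counts describe the lists and were not tested.

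**Figure D5:**
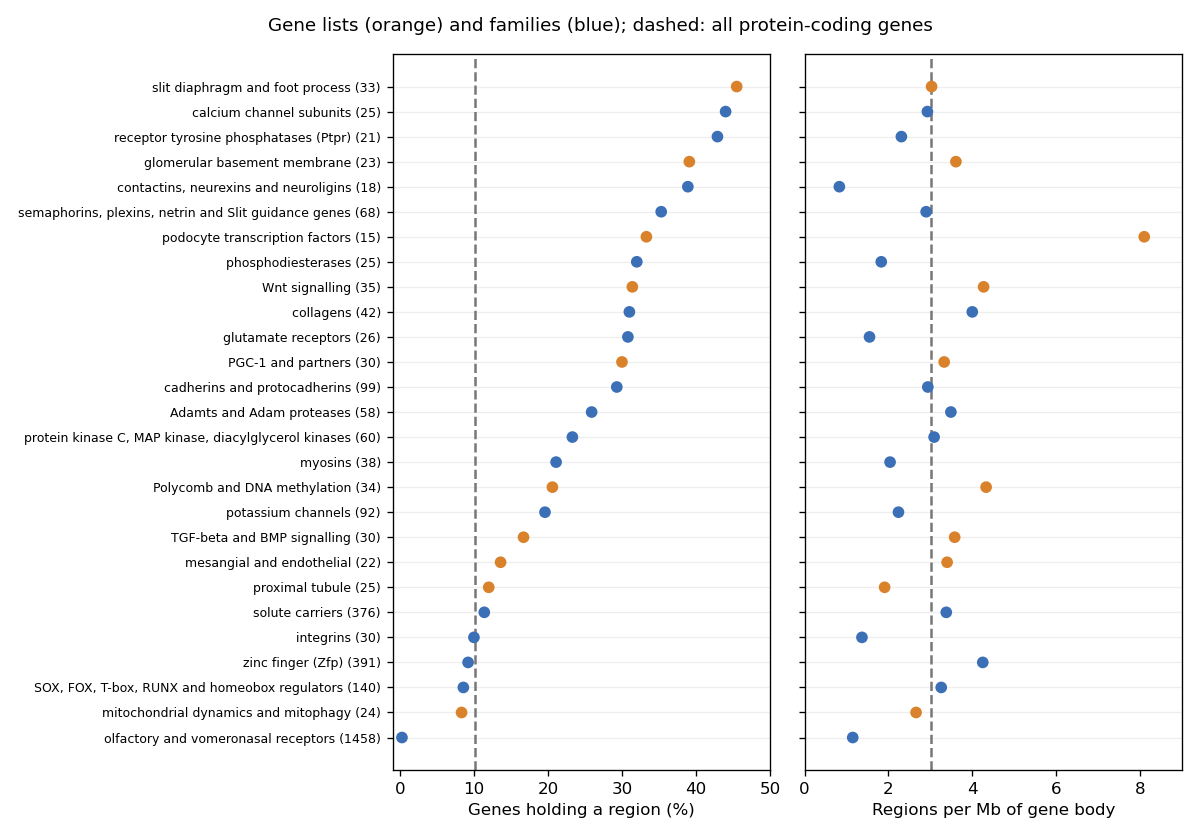
Percentage of genes with at least 1 region (left) and regions per Mb of gene body (right) for 10 lists (orange) and 17 of the families (blue), with the number of genes in brackets; dashed lines are all protein-coding genes, at 10.1% and 3.01 per Mb. Most points lie right of the line on the left, while on the right they lie on both sides.

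Genes of the slit diaphragm and foot process, the junction and actin structures of podocytes, held a region in 15 of 33 (45.5%). Their median length was 101.3 kb and their density 3.03 per Mb, close to all genes. Magi2, a scaffold of the slit diaphragm, held chr5:19592152-19592727 with 3100 in even 1, 3100 in odd 1 and 746 in odd 2, and chr5:19984977-19985302 with 3100 in even 1 and 574 in odd 2. Prkci, an atypical protein kinase C of the polarity complex, held chr3:31028060-31028536 with 3100 in even 1, 531 in even 2 and 3100 in odd 1, and a second region from even 1 and odd 1. Dlg1, a membrane scaffold, held a region from even 1 and odd 2 (score 377) and another from even 1 and odd 1. The other hosts were Anln, Arhgap24, Kirrel2, Kirrel3, Magi1, Nck1, Pard3, Plce1, Prkcz, Synpo, Synpo2 and Tjp1. Without even 1 the count was 2 genes, and without odd 2 it was 8.

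Podocyte transcription factors had the highest density of any list, 8.1 regions per Mb, from 6 regions in 5 of 15 genes. Tead1, a TEA-domain factor of the Hippo pathway, held chr7:112778316-112778752 with peaks in even 1, odd 1 and odd 2 (odd 2 score 567) and a region from even 1 and odd 1. Zhx2, a zinc finger homeobox factor, held chr15:57828466-57828758 and Klf6, a Krüppel-like factor, chr13:5866578-5867219, both from even 1, odd 1 and odd 2, with odd 2 scores of 647 and 548. Lmx1b and Pax2 were the other hosts. The list spans only 0.741 Mb, so that a single region moves its density, and without even 1 a single gene held a region. Its density of 1-library regions, 54 per Mb against 42.1 over all genes, was also the highest of the 28 lists and families. Without chromosomes 8, 15 and 19, where even-odd and 1-library regions are both denser, 3 genes held a region.

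Glomerular basement membrane genes held a region in 9 of 23 (39.1%, 3.61 per Mb). Col4a1, a type IV collagen chain, held chr8:11265221-11265729 with 3100, 500 and 3100 in even 1, even 2 and odd 1, and a region from even 1 and odd 2 with scores of 2894 and 152. Lama2, a laminin chain, held regions from even 1 and odd 2 with odd 2 scores of 358 and 408. Frem1, an extracellular matrix protein of basement membranes, held chr4:83002954-83003469 with 3100, 291 and 817 in even 1, even 2 and odd 2. Without odd 2 the count was 2 genes and without even 1 it was 3.

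Lists for other kidney cells were lower in percentage. Of 25 proximal tubule genes, 3 held a region (12%, 1.91 per Mb): Anpep, a brush border peptidase, Slc4a4, a bicarbonate cotransporter, and Dab2, an endocytic adaptor. All 3 were from even 1 and odd 2, so that none remained without either library. Of 22 mesangial and endothelial genes, 3 held a region (13.6%, 3.4 per Mb), namely Nrp1, Notch3 and Ehd3. Nrp1, a receptor for vascular endothelial growth factor and semaphorins, had chr8:128384967-128385418 with 3100, 733 and 3100 in even 1, even 2 and odd 1. Without even 1, 1 gene of this list held a region. These lists have median lengths of 35.9 and 44.5 kb, shorter than the slit diaphragm list.

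PGC-1 and its partners held a region in 9 of 30 genes (30%, 3.33 per Mb). Ppargc1a itself held a pair. One at chr5:51722002-51722657 scored 3100 in even 1 and in odd 1, and the other at chr5:51959169-51959969 scored 3100 in even 1, 374 in even 2 and 3100 in odd 1; neither had an odd 2 peak. They lay at 59.5% and 23.6% of the gene from its 5′ end. Esrrb, an oestrogen-related receptor, held chr12:86385766-86386713 from even 1, odd 1 and odd 2 (odd 2 score 389). Pparg, the adipogenic nuclear receptor, held chr6:115465055-115465388, with 517 in even 2, 3100 in odd 1 and 174 in odd 2 and no even 1 peak. Esrrg, Mef2c, Ppara, Ppargc1b, Rxra and Rxrg were the other hosts. The count was 5 genes without even 1 and 5 without odd 1. Of 24 genes of mitochondrial dynamics and mitophagy 2 held a region (8.33%, 2.66 per Mb), among them Bnip3, a mitophagy receptor gene, with 1 region from even 2 and odd 1. Without even 2, or without odd 1, the count was 1.

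Polycomb and DNA methylation genes held a region in 7 of 34 (20.6%, 4.33 per Mb). Jarid2 and Asxl2, Polycomb-associated proteins, had regions from even 1, odd 1 and odd 2, with odd 2 scores of 549 at chr13:44884361-44884856 and 357 at chr12:3500329-3500777. Ezh1, a histone methyltransferase, had chr11:101213030-101213704 with 3100, 153 and 709 in even 1, even 2 and odd 2. Wnt genes held a region in 11 of 35 (31.4%, 4.27 per Mb). Tcf7l2, the transcription factor of the pathway, held a pair, of which chr19:55831844-55832290 scored 476 in odd 2, and the ligand genes Wnt7b and Wnt11 held 1 each, with odd 2 scores of 574 and 240. Genes of TGF-beta and BMP signalling held a region in 5 of 30 (16.7%, 3.58 per Mb). Smad6, an inhibitor of the pathway, held 3 regions, and the receptor genes Bmpr1b and Acvr1 a pair each, with an odd 2 score of 1104 at chr3:142159142-142159667 in Bmpr1b. Without even 1 the counts of these lists were 1 (Polycomb), 2 (Wnt) and 3 (TGF-beta and BMP). Without odd 1 the TGF-beta and BMP count was 2, and without odd 2 the Polycomb and Wnt counts were 4 and 6.

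Families of long genes led by percentage but not by density. Calcium channel subunits had a region in 11 of 25 genes (44%, 2.93 per Mb), receptor tyrosine phosphatases in 9 of 21 (42.9%, 2.31 per Mb), and contactins, neurexins and neuroligins in 7 of 18 (38.9%). The latter had a median length of 525 kb and, with 0.831 regions per Mb, the lowest density of all 28. In Ptprt, a receptor phosphatase, 3 of 4 regions had 3 libraries, and chr2:162505190-162505624 scored 3100, 1173 and 453 in even 1, even 2 and odd 2. Cacna1s, the channel subunit of skeletal muscle, held chr1:136070597-136071280 with an odd 2 score of 1214. Cntnap2, a contactin-associated protein gene, had chr6:47276974-47277452 with 3100, 411 and 1116 in even 1, even 2 and odd 2. Without even 1 the counts of these 3 families were 5, 3 and 2. The calcium channel count was 7 without odd 1 and 6 without odd 2, and that of contactins, neurexins and neuroligins was 4 without odd 2.

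Families of adhesion, matrix and motor proteins differed among themselves. Collagens held a region in 13 of 42 (31%, 4 per Mb), with 3 each in Col27a1 and Col23a1. Integrins, in contrast, held one in 3 of 30 (10%, 1.37 per Mb), and none without even 1; this difference between families was not tested. Cadherins and protocadherins counted 29 of 99, but many of these hosts share the 1 region in the protocadherin alpha cluster. Their density of 2.94 per Mb counted that region once for each of them. Cdh12, a classical cadherin gene, held chr15:21101626-21102636, with an even 2 score of 2379 beside 3100 in even 1 and odd 1. Guidance genes, which include semaphorins and Slits, held a region in 24 of 68 (35.3%, 2.9 per Mb), among them Slit3 with an odd 2 score of 1117 at chr11:35238588-35239270. Myosins held one in 8 of 38 (21.1%, 2.04 per Mb), and Adam and Adamts proteases in 15 of 58 (25.9%, 3.49 per Mb). Without even 1 the counts were 3 for collagens, 4 for cadherins, 6 for guidance genes, 5 for myosins and 5 for the proteases. Without odd 1 they were 4 for myosins, 8 for the proteases and 1 for integrins. Without odd 2 they were 10 for cadherins, 5 for collagens and 5 for myosins.

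The remaining families included the least occupied ones. Solute carriers held a region in 43 of 376 (11.4%, 3.38 per Mb), with 4 in the inositol transporter gene Slc2a13, and zinc finger genes in 36 of 391 (9.21%, 4.25 per Mb). Among the latter, Zfp993 and Zfp978 held 5 regions each in the same stretch of chromosome 4; how reads map among such related genes was not tested. Potassium channels held one in 18 of 92 (19.6%, 2.24 per Mb), glutamate receptors in 8 of 26 (30.8%, 1.55 per Mb), phosphodiesterases in 8 of 25 (32%, 1.83 per Mb), and protein, MAP and diacylglycerol kinase genes in 14 of 60 (23.3%, 3.09 per Mb). Grik4, a kainate receptor subunit gene, held 4 regions, with odd 2 scores from 221 to 970. Of 140 SOX, FOX, T-box, RUNX and homeobox genes, 12 held a region (8.57%, 3.26 per Mb), including Foxp1, a forkhead repressor, with 4, and Sox6 with a region at chr7:115960947-115961267 that scored 881 in even 2. Olfactory and vomeronasal receptor genes, of median length 0.951 kb, held a region in 4 of 1458 (0.274%, 1.15 per Mb). Without even 1 the counts were 12 for solute carriers, 8 for zinc finger genes, 4 for potassium channels, 5 for phosphodiesterases, 4 for the kinases, 6 for the SOX to homeobox group, and 0 for glutamate and for olfactory and vomeronasal receptors. Without odd 1 the kinases counted 8, the SOX to homeobox group 7 and the olfactory and vomeronasal receptors 2. Without odd 2 the solute carriers counted 27, potassium channels 9, phosphodiesterases 3 and the olfactory and vomeronasal receptors 2.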

How the data were processed

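Per the submitters' processing notes, the ChIRP-seq libraries were mapped to mm10 using Bowtie2 2.1.0. The authors deposited a separate list of peaks for every pulldown, with the input of the same number as control, per the file names. The version and threshold of the peak caller are not stated there or given in the sources used here. Each peak's score, as deposited by the authors, has an unstated scale and served only to describe and rank peaks within a list. Depth is unknown, so no counting interval was formed. A further list of 130269 peaks equalled the 4 lists combined and was not used.

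Peaks were merged at an overlap of at least 1 bp and placed by their centre in gene spans of the RefSeq gene table (GRCm38.p6), in 1-based positions. The table has no exons. Strand and starts came from the RefSeq promoter table; starts on chromosome 18 were not used here. The members and lists were chosen with earlier results of these data known. Named genes are the 10 regions of 3 libraries with the highest mean percentile of score, the 10 genes with most regions, the 5 densest with at least 3, up to 3 hosts per list, and 3 regions on each side of the 2 kb limit. Regions at promoter windows, the microRNA and Hif1a were chosen after their values were seen, and hosts of some lists are named in full. Results of 1 family and of some genes are not reported here. No test was run on the counts, since peak presence chose the regions. The peak shares of even and odd libraries had the permutation test described above. On simulated data, 200 of 200 planted regions were selected and 0 of 450 others. The simulated peaks of a region overlapped widely, lay in long genes and did not cover every library pattern. This result checks the selection code only and says nothing about the real peaks. The selection was repeated with 50% reciprocal overlap, with only the upper part of each list by score (median or more), with limits of 1 and 5 kb, with whole regions inside the gene, without chromosomes 8, 15 and 19, with same-number pairs, and without each library. Leaving out crowded genes was added after seeing the data. Versions were 3.11.15 for Python, 2.3.3 for pandas, 2.4.6 for numpy, 3.10.9 for matplotlib and 1.17.1 for scipy.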

Additional observations from a re-analysis of the deposited data

How the results depend on the processing

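The largest dependence was on single libraries. With each of the 4 left out in turn, the number of regions ranged from 622 to 2420, host genes from 545 to 1921, density from 0.686 to 2.67 per Mb, the share of even-odd regions in gene bodies from 34.3% to 42.1%, and the median host length from 93.1 to 125 kb; the lowest counts were those without even replicate 1. Same-number pairs (even 1 with odd 1, even 2 with odd 2) gave 1698 regions, 1.87 per Mb and a median host length of 100.8 kb. A reciprocal overlap of 50% gave a median host length of 101.1 kb. Peaks at or above the median score of their list gave 97.9 kb and a share of 42%. A limit of 1 kb from gene ends gave 83.4 kb and 42.9%, and a limit of 5 kb gave 114 kb and 35.2%. The cause was not tested, apart from the construction of the limits themselves, which add or remove sequence at gene ends. Keeping whole regions inside the gene could change no value. Centres lie more than 2 kb from gene ends, and the widest region spans 3481 bp, so none reaches an end. The number of lists above all genes stayed within a factor of 1.5 under all 12 alternatives. This number cannot exceed 28, and the percentage over all genes was recalculated each time. Its stability therefore says little about single lists. Of 336 recalculated list counts, 262 stayed within that factor and 74 were lower, 27 of them without even replicate 1. With same-number pairs the count was 9 for slit diaphragm, 3 for basement membrane, 0 for proximal tubule and 5 for PGC-1 genes. It was 7 for Wnt, 1 for mitochondrial dynamics, 10 for cadherins and 7 for collagens. Potassium channels counted 9, myosins 5 and olfactory and vomeronasal receptors 2, and the other lists stayed within the factor. The only test across libraries, the permutation test of peak shares, did not pair them by number, and a paired version was not run. No paired analysis was possible for the other results, because none of them comes from a test across libraries. Only the selection from same-number pairs, given above, uses the numbers. Read depth limits every count of peaks and is unknown.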
